A study of Mus musculus with 6 samples.

Results

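Matrix metalloproteinases and their tissue inhibitors were followed in the soleus muscle of wt C57Bl/6 mice after hindlimb suspension, which takes the body weight off the hind legs. The soleus is a calf muscle rich in slow fibres that is active in standing. The 7 genes are the proteases Mmp2, Mmp3, Mmp9 and Mmp14 and the inhibitors Timp1, Timp2 and Timp3. They were chosen by their annotated gene symbol, 1 probe each, out of 203 named genes and 223 probes on the array. There were 6 arrays, each given 3 microgram of total RNA from muscle cryosections, and all belong to the group titled HUR wt HS7. No unsuspended muscle was analysed here, so the values describe unloaded muscle and its spread between arrays, and no effect of suspension can be read from them. The labels do not tie each array to its own animal, so part of the spread may be technical. In whole muscle, fewer cells of a type and less RNA per cell cannot be told apart.

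Matrix metalloproteinases are zinc enzymes that cut collagens, laminins, fibronectin and other proteins around cells. Most are made as inactive proenzymes, and the tissue inhibitors of metalloproteinases bind the active site and block it. Mmp14 sits in the cell membrane. It holds a Timp2 molecule that in turn holds pro-Mmp2, so that a neighbouring Mmp14 can cut the proenzyme. Timp2 therefore takes part in the activation of Mmp2 as well as in its inhibition. In muscle these enzymes are known for remodelling the basement membrane and the interstitial matrix during injury, growth and disuse. A transcript level says nothing about how much of an enzyme is active.

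The defining muscle genes Myh7 (slow myosin heavy chain), Mb (myoglobin) and Des (desmin) were above 0 on all arrays, as were the other 2 of 5 probed fibre genes and all 5 endothelial genes. Of 6 fibroblast genes listed, only Pdgfra was probed. None of the 5 macrophage or the 5 neutrophil genes listed was, so infiltrating cells could not be followed with these lists. Replicate 1 stood apart. Its deposited intensities summed to 37.5, against 15.3 to 18.5 on the other arrays, and it had the highest deposited value of the 6 arrays for 50.7% of all probes. On the deposited scale, the gap of 1 array to its neighbour passed Dixon's critical ratio, a test for outliers, for 26% of all probes, and for Mmp9, Timp1 and Timp3 of the 7 genes. Where computed, results that rest on replicate 1 are given with and without it. The search for similar profiles was run on all 6 arrays only.

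Of the 7 genes, 5 gave a value above 0 on all 6 arrays: Mmp2, Mmp14, Timp1, Timp2 and Timp3. Over all probes the share was 76.7%. The 5 genes were also above a stricter bound on every array, the size of that array's own most negative value after background subtraction, which 60.1% of all probes exceeded throughout. That bound lay between 0.0005 and 0.0020. Mmp9 and Mmp3 were not measured on all arrays and have no level below.

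**Figure D1:**
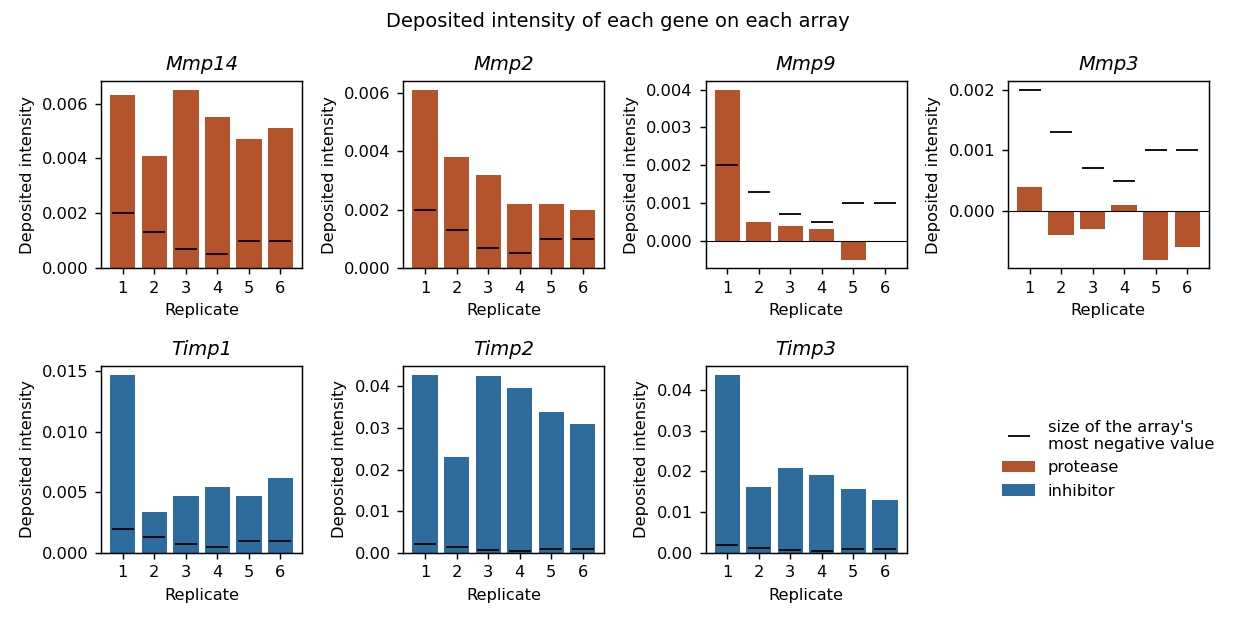
Deposited intensity (linear, scale of the authors, y axis) of each gene on replicates 1 to 6 (x axis); black dashes are the size of each array's most negative value. Mmp3 never exceeds the dash and Mmp9 does so on replicate 1 alone; each panel has its own y axis.

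Mmp14, the membrane-anchored protease, had deposited intensities of 0.0063, 0.0041, 0.0065, 0.0055, 0.0047 and 0.0051 on replicates 1 to 6. It was highest on replicate 3 and lowest on replicate 2, 1.59-fold apart, and replicate 1 lay inside the range of the others. On the log2 scale with each array's median over the 171 probes above 0 on all arrays set to 0, its level was -0.68 ± 0.25 (SD, n = 6). Of all 171 probes, 15.2% had a smaller SD, and the median SD was 0.48. Without replicate 1, 33.9% of the probes had a smaller SD, and with arrays scaled to equal totals the SD of Mmp14 was 0.40.

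Mmp2, the gelatinase that degrades denatured collagen and collagen IV, had deposited intensities of 0.0061, 0.0038, 0.0032, 0.0022, 0.0022 and 0.0020. Replicates 1, 2 and 3 lay above the other 3 arrays, also after centring, where its level was -1.51 ± 0.50 (SD, n = 6) and ran from -2.16 on replicate 4 to -0.91 on replicate 1. Without replicate 1 the SD was 0.46, and with equal totals 0.31. The deposited values are rounded to steps of 0.0001, which is coarse for a signal of this size, but the lowest of these values was still 2.00 times the background bound of its array.

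Mmp9, the second gelatinase, which leukocytes store and release, had deposited intensities of 0.0040, 0.0005, 0.0004, 0.0003, -0.0005 and 0.0000. It was above 0 on 4 of 6 arrays, and only on replicate 1 was it above the background bound. No leukocyte gene of the lists was on the array, so the part of such cells in that value was not tested.

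Mmp3, stromelysin 1, which cuts many matrix proteins and activates other proenzymes, had deposited intensities of 0.0004, -0.0004, -0.0003, 0.0001, -0.0008 and -0.0006. It was above 0 on replicates 1 and 4 and above the background bound on 0 arrays, which means that it was not detectable with this probe and says nothing about low transcript amounts.

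Timp2, the inhibitor that also bridges Mmp14 and pro-Mmp2, had deposited intensities of 0.0428, 0.0230, 0.0425, 0.0396, 0.0339 and 0.0310. Replicate 2 was the low array here, as for Mmp14, and replicates 1 and 3 were nearly equal. The centred level was 2.03 ± 0.26 (SD, n = 6), and 18.1% of the 171 probes had a smaller SD, or 36.8% without replicate 1. With equal totals its SD was 0.43. Its value was at least 17.7 times the background bound on each array.

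Timp3, an inhibitor that binds to the matrix and also acts on other metalloproteinases of the cell surface, had deposited intensities of 0.0438, 0.0162, 0.0209, 0.0192, 0.0156 and 0.0129. Replicate 1 exceeded every other array by more than the others differed among themselves. The centred level was 1.21 ± 0.38 (SD, n = 6), with 1.93 on replicate 1 and 0.93 to 1.32 on the other arrays. Without replicate 1 its SD was 0.16, smaller than that of all but 8.19% of the probes over the same 5 arrays. With equal totals the SD over all 6 arrays was 0.20, and without centring 0.62.

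Timp1, the inducible inhibitor of the family, had deposited intensities of 0.0147, 0.0034, 0.0047, 0.0054, 0.0047 and 0.0062. Replicate 1 was again far above the others, and replicate 6 was next. The centred level was -0.56 ± 0.57 (SD, n = 6), the largest SD of the 5 genes with this centring, with 0.35 on replicate 1, -0.07 on replicate 6 and -1.14 to -0.80 on the other 4 arrays. Without replicate 1 the SD was 0.40.

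**Figure D2:**
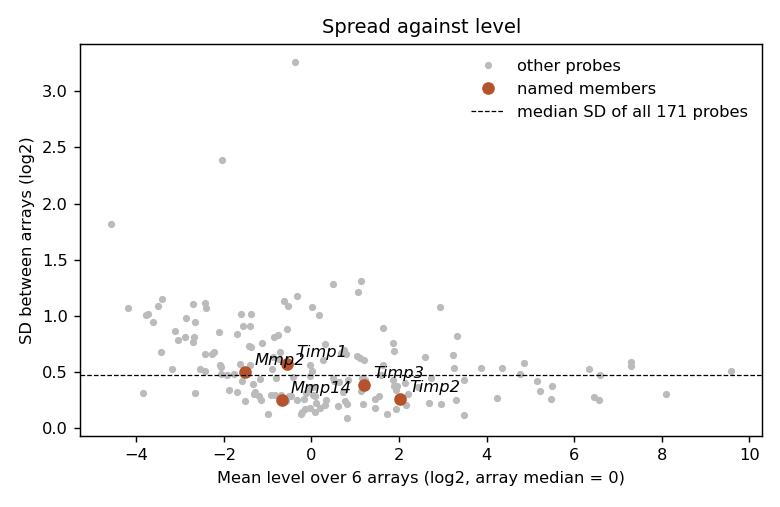
Mean level (x axis, log2, array median at 0) and SD between the 6 arrays (y axis, log2) of the 171 probes above 0 on all arrays, 1 point per probe, with the 5 genes in colour and the median SD of 0.48 dashed. Mmp14, Timp2 and Timp3 lie below the dashed line, Mmp2 and Timp1 above it; levels of different probes are not transcript amounts.

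The median SD of the 5 genes was 0.38, against 0.48 over all 171 probes. The 2 sets are not matched on level, since all 5 genes but only 134 of the 171 probes were above the background bound on every array. Without replicate 1, with the 171 probes and their centring kept, the medians were 0.28 and 0.34. Without centring the order turned, at 0.62 for the 5 genes and 0.57 for all probes. How replicate 1 differed from the mean of the other arrays split the genes. After centring, the gap of 1 array to its neighbour passed Dixon's critical ratio for 0 of the 5 genes, against 15.8% of the 171 probes. The difference was 1.10 for Timp1, 0.87 for Timp3 and 0.71 for Mmp2, but -0.22 for Mmp14 and -0.16 for Timp2 on the centred log2 scale. Over all 171 probes the median difference was 0.13, with quartiles of -0.54 and 0.80, so Timp1 and Timp3 lay above the upper quartile and the other 3 between the quartiles. Markers of cell types moved with this array too. All 5 fibre genes were higher on replicate 1, from 0.46 for Mb to 1.12 for Myh7 and 1.85 for Myh2 (fast myosin heavy chain). Of the 5 endothelial genes 4 were lower after centring, among them Pecam1 at -0.63 and the growth factor receptor Flt1 at -2.60. Tek was at 0.14, and the fibroblast gene Pdgfra was at 0.61. Both counts depend on the scaling. With arrays scaled to equal totals the median difference over all probes moved from 0.13 to -0.45. The same shift applies to every probe and would put Mb below 0. As deposited, Flt1 was lowest on replicate 1 (0.0026 against 0.0080 to 0.0145). Deposited Pecam1 and Cdh5 lay inside the range of the other arrays, and Kdr was highest on replicate 1 (0.0097 against 0.0066 to 0.0088). The part of tissue makeup in the values of replicate 1 was not tested. The signs of Mmp14 and Timp2 turned without centring, to 0.30 and 0.36, where the median over all probes was 0.65. In every scaling tried, both lay below Mmp2, Timp1 and Timp3 in this difference.

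**Figure D3:**
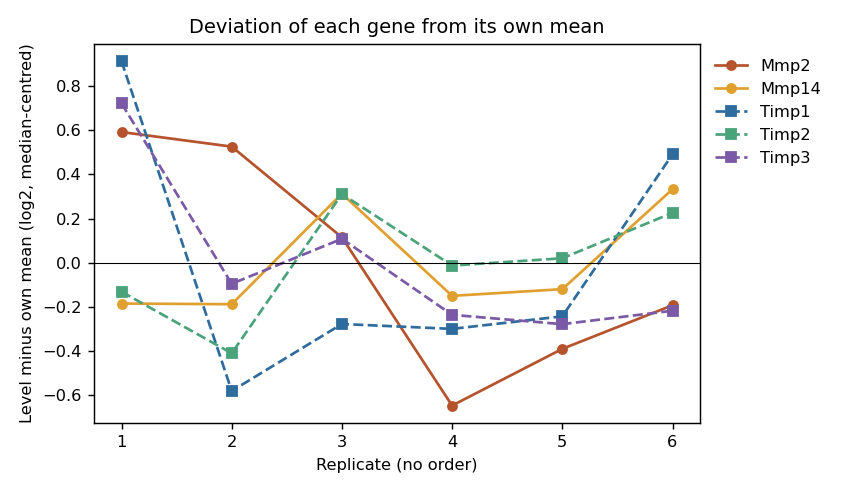
Centred log2 level of each gene minus its own mean over the 6 arrays (y axis) by replicate (x axis, which has no order; lines only join points of a gene). Mmp14 and Timp2 stay close to each other on all arrays, while Timp1, Timp3 and Mmp2 are high on replicate 1.

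Protease and inhibitor were then compared within arrays. Subtracting 1 log2 value from another of the same array removes any factor that scales a whole array. The size of such a difference depends on the 2 probes and is not a ratio of transcripts, so what is described is how far it moved between arrays. There are 6 pairs of a measured protease and a measured inhibitor. Over all 14535 pairs of measured probes the median SD of such a difference was 0.73, or 0.53 without replicate 1.

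Mmp14 minus Timp2 was the steadiest of the 6 pairs. It was -2.76, -2.49, -2.71, -2.85, -2.85 and -2.60 on replicates 1 to 6, a mean of -2.71 ± 0.14 (SD, n = 6). On the linear scale the deposited Mmp14 value was between 0.139 and 0.178 of the Timp2 value on every array, replicate 1 included. Of all probe pairs, 0.38% had a smaller SD over the 6 arrays, a share not computed for other settings. That share is not matched on level or spread. Of the 171 probes behind the pairs, 134 were above the background bound on every array, as Mmp14 and Timp2 were. Both genes also had small SDs of their own (0.25 and 0.26), which limits the SD of their difference. Without replicate 1 the SD of this pair was 0.16, against the median of 0.53 over all pairs. With quantile normalization the SD of the pair was 0.25, and after removing from each array a smooth (lowess) trend on level it was 0.21.

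Mmp2 minus Timp2, the other arm of the activation complex, moved more. It was -2.81, -2.60, -3.73, -4.17, -3.95 and -3.95, a mean of -3.53 ± 0.66 (SD, n = 6). Replicates 1 and 2 lay apart from the other 4 arrays, and the range of 1.57 corresponds to 2.97-fold. Of all probe pairs, 43.1% had a smaller SD over the 6 arrays. Without replicate 1 the SD of this pair was 0.62, against the median of 0.53 over all pairs.

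Mmp2 minus Timp3 was -2.84, -2.09, -2.71, -3.13, -2.83 and -2.69, a mean of -2.71 ± 0.34 (SD, n = 6). Replicate 2 was the high array, and without it the SD was 0.17. Both genes were high on replicate 1, and that array therefore lay among the others in this difference.

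Both remaining pairs of Mmp14 depended on replicate 1. For Mmp14 minus Timp1, replicate 1 gave -1.22 and the other arrays -0.28 to 0.47, with a mean of -0.12 ± 0.60 (SD, n = 6). Without replicate 1 its mean was 0.10 and its SD 0.29, so its sign turned. For Mmp14 minus Timp3, replicate 1 gave -2.80 and the other arrays -1.98 to -1.34, with a mean of -1.89 ± 0.49 (SD, n = 6), with an SD of 0.24 without replicate 1. Mmp2 minus Timp1 depended on replicate 2 instead. It ran from -1.63 on replicate 6 to 0.16 on replicate 2, the widest range of the 6 pairs at 3.46-fold, with a mean of -0.95 ± 0.65 (SD, n = 6). Its SD was 0.70 without replicate 1 and 0.39 without replicate 2.

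**Figure D4:**
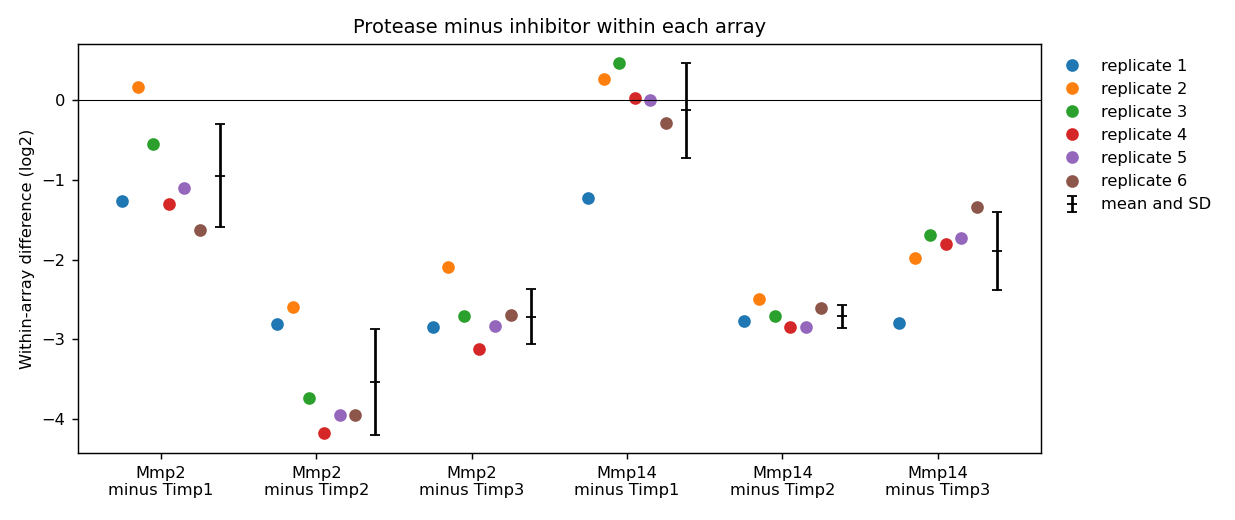
Log2 value of the protease minus that of the inhibitor on the same array (y axis) for the 6 pairs (x axis), 1 point per replicate, with mean and SD in black. The points of Mmp14 minus Timp2 span 0.36, the least of the pairs, and those of Mmp2 minus Timp1 span 1.79.

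The inhibitors also moved against each other. For Timp2 minus Timp3, replicate 1 gave -0.03 and the other arrays 0.51 to 1.26. For Timp1 minus Timp2, replicate 1 gave -1.54 and the other arrays -3.18 to -2.32. These pairs were chosen after their values were seen.

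For the 3 genes of the activation complex, centred levels were correlated over the 6 arrays. Mmp14 and Timp2 had a Pearson correlation of 0.84 (exact permutation p = 0.014, adjusted over the 3 pairs by Benjamini-Hochberg 0.042) and Spearman's rho was 0.94 (exact p = 0.017, adjusted 0.050). A shift of a whole array that centring leaves in would move both genes together, and its part in r was not tested. Without replicates 3 and 6, the arrays farthest from the median of Mmp14, r was 0.80. The correlation was positive under all alternatives run. However, the call was lost with quantile normalization (r = 0.48, exact p adjusted 0.47), with the lowess curve (0.66, exact p adjusted 0.46) and with the centre taken over brighter probes (0.82, exact p adjusted 0.15). It was also lost without any 1 of the arrays (r from 0.76 to 0.95, exact p adjusted from 0.075 to 0.35). With 1 array fewer there are fewer possible orders, which limits how small p can be, but r itself also moved. It was 0.76 without replicate 3 (exact p = 0.21) and 0.83 without replicate 6 (exact p = 0.092), against 0.84 over all arrays. Without replicate 1, 2, 4 or 5 it was 0.85 to 0.95. Mmp2 and Timp2 had r = -0.47 (exact p = 0.37, adjusted 0.55) and rho = -0.37 (exact p = 0.50, adjusted 0.50). Mmp2 and Mmp14 had r = -0.15 (exact p = 0.73, adjusted 0.73) and rho = -0.43 (exact p = 0.42, adjusted 0.50). Without replicates 1 and 4, the farthest for Mmp2, these were -0.61 and -0.26. Neither of these 2 pairs passed the test, which with 6 arrays does not show that the genes vary independently.

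Promoter sequence of both genes that kept close is shown with that of Mmp3, which was not detectable. The promoter table of RefSeq held 5 of the 7 genes, all but Mmp2 and Mmp9. Each stretch is the 150 bases before the annotated start on build GRCm38.p6, on the gene's strand. Capitals mark matches, on either strand, to TGANTCA (the AP-1 motif), GGGCGG (the GC box) and TATAAA (the TATA box); matches of a motif may overlap.
Mmp14, chr14:54431448-54431597, plus strand: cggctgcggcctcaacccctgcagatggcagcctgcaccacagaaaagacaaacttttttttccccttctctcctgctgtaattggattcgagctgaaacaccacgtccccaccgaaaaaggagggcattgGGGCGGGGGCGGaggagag
Timp2, chr11:118355412-118355561, minus strand: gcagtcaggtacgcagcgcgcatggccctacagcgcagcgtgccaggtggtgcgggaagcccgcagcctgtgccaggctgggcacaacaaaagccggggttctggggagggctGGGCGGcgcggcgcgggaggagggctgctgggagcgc
Mmp3, chr9:7445672-7445821, plus strand: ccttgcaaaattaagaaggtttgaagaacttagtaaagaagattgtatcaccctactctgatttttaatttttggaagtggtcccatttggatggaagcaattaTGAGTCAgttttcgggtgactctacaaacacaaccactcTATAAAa

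Mmp14 held 2 GC boxes and Timp2 held 1, and neither held the AP-1 motif or the TATA box. Timp1 and Timp3 likewise held 1 GC box each and none of the others. Mmp3 held 1 AP-1 motif and 1 TATA box and no GC box. Among all 32851 promoters of the table, 28.6% held a GC box, 4.24% the AP-1 motif and 7.57% the TATA box in the same window. The share of G and C was 57.3% for Mmp14, 73.3% for Timp2 and 35.3% for Mmp3, against a median of 54.0% over all promoters. These are matches of letters in a window and not shown to be sites.

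Other genes around these proteases were taken from lists of pericellular proteases, matrix substrates, cell surface partners and inducers, which held 70 genes. Of these, 32 were probed and 24 (75%) were above 0 on all arrays, close to the 76.7% of all probes. In the proteolysis list 6 of 9 probed genes were above 0 throughout. Plau (urokinase) and Plaur, its receptor, were also above the background bound on all arrays, as was Ctsh, a lysosomal protease. Of the 4 further metalloproteinases on the array, Mmp10 and Mmp11 were above 0 on 6 arrays but above the bound on 1 and 2, Mmp12 was above 0 on 3 and Mmp8 on 1. Of all 8 metalloproteinases probed, then, Mmp2 and Mmp14 alone were above the bound on every array, where the share over all probes was 60.1%.

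Of the matrix substrates, 10 of 11 probed genes were above 0 and above the bound on all arrays, the exception being Lamb1, a laminin chain. All 3 cell surface partners and 5 of 9 inducers were above 0 throughout, where the share over all probes was 76.7%. Over all lists together, 19 of 32 probed genes were above the bound on every array, near the 60.1% of all probes. Among the inducers the AP-1 subunits Jun and Jund were above the bound on every array, while the AP-1 subunits Junb and Fosl1 and the cytokines Il1b and Il6, which are known inducers of Mmp3 and Mmp9, were each at or below 0 on at least 2 arrays. The median SD of the 24 measured genes was 0.45, against 0.48 over all probes. The largest SDs were those of Lama3, a laminin chain (1.28), and Plat, the tissue plasminogen activator (1.09, above the bound on 2 arrays), and the smallest those of Tgfb1, a growth factor that drives matrix production (0.13), and Lama4, a laminin chain of vessels (0.14). Without replicate 1 the SD of Plat was 0.63, below those of Mmp11 (1.07), Lama3 (1.05) and Mmp10 (0.92), while Tgfb1 and Lama4 were still the smallest, at 0.11 each. Replicate 1 was above the mean of the others for 17 of the 24 genes, against 53.2% of all 171 probes. Among them were all 6 of the proteolysis list and 4 of the 10 substrates. Of those 6, Mmp10, Mmp11 and Plat were above the bound on only 1, 2 and 2 arrays, so their values lay near the floor.

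The probes with the most similar profiles were sought over all named probes above 0 on all arrays, by the mean absolute difference of their deviations from their own means over the 6 arrays. This measure favours probes of similar SD, and it was run with median centring and on all 6 arrays only. The closest probe is the lowest value of a search and so lies below the median by construction. For each of the 5 genes it lay at 0.07 to 0.11. For Timp2 the closest was Mmp14, at 0.11 (log2), and for Mmp14 Timp2 was the third, also at 0.11, after Hadh (0.10), a beta-oxidation enzyme, and Vldlr (0.11), a lipoprotein receptor. The medians over all named probes were 0.42 and 0.41. The closeness of Mmp14 and Timp2 here rests on the same values as their difference and correlation above, and is no separate result. Myod1, a muscle transcription factor, and Aldoa, the muscle aldolase, followed for Timp2, at 0.14 each.

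For Mmp2 the closest was Pdgfra, a growth factor receptor of mesenchymal cells, at 0.07 against a median of 0.49. Pdgfra had levels of -0.66, -0.67, -1.07, -1.61, -1.60 and -1.38 on replicates 1 to 6, high on the same 3 arrays as Mmp2. Acadm, a fatty acid dehydrogenase, followed at 0.10 and Fabp4, a fatty acid binding protein of fat and vessel cells, at 0.19.

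For Timp1 the closest were Ldhb, a lactate dehydrogenase subunit, and Cox6a2, a cytochrome c oxidase subunit, at 0.08 each, and Gapdh at 0.14, against a median of 0.49. These are bright muscle probes that, like Timp1, were highest on replicate 1 and next on replicate 6. For Timp3 the closest were Vegfb, a vascular growth factor (0.11), Fabp4 (0.11) and Itgb1, an integrin subunit (0.12), against a median of 0.39, and all 3 were highest on replicate 1. Among the 171 probes, replicate 1 was the highest array for 39.2%.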

How the data were processed

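The deposited table holds 1 intensity per probe and array on a linear scale, background-subtracted by the authors as its values below 0 show; the sources used here do not name scanner, background method or scaling. Probes were named through the platform annotation, and all 7 gene numbers were found in the RefSeq gene table with unchanged symbols. Probes above 0 on all 6 arrays (171 of 223) were put on the log2 scale with no pseudocount, and each array's median over them was subtracted. Values at or below 0 were treated as not detected. There is 1 group, so no test between groups was made. Named genes were all 7 members, the 2 most and 2 least variable measured genes of the surrounding lists and the 3 probes most like each measured member. Every other gene named (cell type markers, further proteases, laminin chains and inducers) was picked from the fixed lists after its values were seen. Members and lists were chosen with earlier results of these data known. Each correlation had a two-sided exact permutation test over the 720 orders of the arrays. Alternatives were no centring, equal totals, quantile normalization, a lowess curve (fraction 0.5), a stricter bound and leaving out arrays. The likeness search and centring were tested on simulated data, with a near copy of 1 probe planted among probes that varied independently. That does not show how the search does on probes that vary together. Python 3.11.15, NumPy 2.4.6, pandas 2.3.3 and statsmodels 0.14.6 were used. The number of arrays limits the precision.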

Additional observations from a re-analysis of the deposited data

Results flagged for a closer look

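In 3 genes the deposited intensity of replicate 1 lay farther from its nearest neighbour, as a share of the range of the 6 arrays, than Dixon's critical ratio for 6 arrays allows. The ratio was 0.778 for Mmp9, 0.752 for Timp1 and 0.741 for Timp3. On that scale 26% of all 223 probes had such a gap, and the sum of replicate 1 was 37.5 against 15.3 to 18.5. Chance gives such a gap in about 1 of 20 groups. After median centring none of the 5 measured genes passed that ratio, the highest being Timp3 at 0.613, while 15.8% of the 171 measured probes did.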

How the results depend on the processing

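The 5 genes above 0 on all arrays remained 5 under the stricter bound and without any 1 array; under that bound Mmp9 was detected on 1 array and Mmp3 on 0. The median SD of the 5 genes was 0.62 without centring (0.57 over all probes) and ran from 0.29 to 0.43 with 1 array left out. For that range probes and centring were set anew each time, which without replicate 1 gave 0.29 for the 5 genes and 0.35 for all probes. Adding the size of each array's most negative value back moved the mean of Mmp14 minus Timp2 to -2.49 and of Mmp2 minus Timp3 to -2.37, since it raises the dimmer probe more. With 1 array left out the mean difference ran from -2.76 to -2.68 for Mmp14 minus Timp2, from -2.0 to -1.71 for Mmp14 minus Timp3, from -0.24 to 0.10 for Mmp14 minus Timp1, from -3.72 to -3.41 for Mmp2 minus Timp2, from -2.84 to -2.63 for Mmp2 minus Timp3 and from -1.17 to -0.81 for Mmp2 minus Timp1. The correlation of Mmp14 with Timp2 was 0.93 without centring and 0.94 with equal totals (exact p adjusted 0.017 for both), 0.48 with quantile normalization, 0.66 with the lowess curve, 0.82 with the centre over brighter probes, and 0.76 to 0.95 with 1 array left out. That of Mmp2 with Timp2 turned to 0.15 without centring and ran from -0.66 to -0.09 with 1 array left out. That of Mmp2 with Mmp14 turned to 0.31 without centring and 0.089 with quantile normalization and ran from -0.45 to 0.12 with 1 array left out. Without centring, replicate 1 minus the others was 0.30 for Mmp14 and 0.36 for Timp2, against -0.22 and -0.16; the cause of these changes was not tested. Equal totals changed the SD of Timp3 to 0.20, of Mmp2 to 0.31, of Mmp14 to 0.40 and of Timp2 to 0.43, so the order of the SDs depends on the scaling. No paired analysis was possible because there is 1 group.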
